A study of Mus musculus with 8 samples.

Results

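Chemokines of the CXC and CX3C classes, together with the lymphoid CC chemokines, were read in the brainstem of mice that lack the mitochondrial complex I subunit Ndufs4 in Vglut2-expressing neurons. The set holds 9 ligands, Cxcl10, Cxcl9, Cxcl12, Cxcl13, Cxcl14, Cxcl16, Cx3cl1, Ccl21a and Ccl19, and 1 receptor, Cxcr4. Every probe annotated with one of these 10 symbols was taken, which gave 15 of the 25697 probes and 10 of the 16593 gene symbols on the array. The tissue was whole brainstem of C57BL/6J mice, with 4 late-stage Vglut2:Ndufs4cKO mice (cKO below) and 4 littermate Vglut2:Ndufs4cCT mice (cCT below), 1 Illumina expression beadchip array per mouse. Both genotypes carry Slc17a6-Cre, which is driven by the promoter of Vglut2. In cKO mice 1 Ndufs4 allele is floxed and the other is deleted, whereas in cCT mice 1 allele is floxed and the other is wild type. The cKO animals therefore carry a deleted allele in all cells, besides the Cre-driven loss in glutamatergic neurons. The paper gives the age of the late-stage cKO mice only as a lower limit. The age in days of each animal is not in the labels, and the labels give no treatment for either group.

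Chemokines are small secreted or membrane-bound proteins that steer cells along a gradient by acting on G protein-coupled receptors. CXCL9 and CXCL10 are interferon-induced ligands of CXCR3 and attract activated T cells and natural killer cells. CXCL12 acts on CXCR4 and is cleared by the scavenger ACKR3, and in brain it guides precursor cells and is made by endothelium, astrocytes and neurons. CX3CL1 is displayed mainly by neurons and is read by CX3CR1 on microglia. CCL19 and CCL21 act on CCR7 and bring dendritic cells and naive T cells into lymphoid organs, while CXCL13 does so for B cells through CXCR5.

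The promoters of the members that lay furthest apart between the genotypes, Cxcl10 and Ccl21a, are shown with those of their genomic partners Cxcl9 and Ccl19. In RefSeq, Cxcl9 and Cxcl10 lie on chromosome 5 with 1 protein-coding gene, Art3, between them, and no protein-coding gene lies between Ccl19 and Ccl21a on chromosome 4. Each run is the 250 bases before the annotated start on mouse build GRCm38.p6 (RefSeq), 5′ to 3′, and capitals mark either the core of the interferon-stimulated response element (ISRE), spelled GAAA, any 2 bases and GAAA, or a form of the NF-kB site, spelled GGGA, any 2 bases and TTCC.
Cxcl10 (chr5:92348890-92349139, minus strand): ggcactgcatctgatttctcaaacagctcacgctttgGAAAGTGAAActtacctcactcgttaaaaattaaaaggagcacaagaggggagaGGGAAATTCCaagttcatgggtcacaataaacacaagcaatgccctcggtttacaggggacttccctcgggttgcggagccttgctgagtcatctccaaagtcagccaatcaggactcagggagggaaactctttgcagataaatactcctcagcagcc
Cxcl9 (chr5:92328080-92328329, minus strand): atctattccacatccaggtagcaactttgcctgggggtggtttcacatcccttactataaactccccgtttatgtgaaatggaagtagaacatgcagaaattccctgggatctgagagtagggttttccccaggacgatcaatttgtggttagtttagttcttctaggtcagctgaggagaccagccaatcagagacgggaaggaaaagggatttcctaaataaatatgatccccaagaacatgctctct
Ccl19 (chr4:42756366-42756615, minus strand): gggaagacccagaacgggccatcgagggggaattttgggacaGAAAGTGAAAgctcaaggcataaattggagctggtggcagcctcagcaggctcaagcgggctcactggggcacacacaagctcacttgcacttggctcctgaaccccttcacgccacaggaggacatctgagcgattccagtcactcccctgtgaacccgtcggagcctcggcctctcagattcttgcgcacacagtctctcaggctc
Ccl21a (chr4:42773992-42774241, minus strand): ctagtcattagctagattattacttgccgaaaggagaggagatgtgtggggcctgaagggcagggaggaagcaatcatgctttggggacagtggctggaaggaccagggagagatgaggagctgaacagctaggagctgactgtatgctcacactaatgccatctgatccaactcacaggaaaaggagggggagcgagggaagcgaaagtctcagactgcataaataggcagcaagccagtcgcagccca
Both strands were searched, and promoters of 9 of the 10 members were in the table used here, Cxcl16 being the other. Cxcl10 held GAAAGTGAAA from base -213 to -204 counted from the start, and GGGAAATTCC from -159 to -150. Ccl19 held the same 10 letters as Cxcl10, GAAAGTGAAA, from -208 to -199, and Cxcl14 held GAAACAGAAA from -172 to -163. No match overlapped another. Of 32851 promoter windows of that length, 978 (2.98%) held the ISRE core and 397 (1.21%) held the NF-kB form. A match describes letters and is not a measured binding site. Other spellings of either site were not searched, so unmarked stretches may hold them.

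Arrays were read as log2 of the background-corrected, mean-scaled signal plus 16, called log2 signal here. A probe was called detected at a detection p under 0.05, which is the share of negative control probes at least as bright, and was tested if detected on at least 3 of the 8 arrays. Adjusted p-values come from limma over all 15225 tested probes. Detected probes numbered 14720 to 15042 on the cKO arrays and 14293 to 14723 on the cCT arrays (two-sided exact permutation p = 0.0571). The background, taken as the median signal of probes with a detection p between 0.4 and 0.6, was 182 to 186 on the cKO arrays and 188 to 206 on the cCT arrays (exact permutation p = 0.0286, the smallest that 4 arrays against 4 can give). The array positions E to H held cKO RNA and A to D held cCT RNA, so position and genotype cannot be told apart. Ndufs4 itself was lower on 1 of its 4 probes, ILMN_1234521, with log2 signals of 11.35, 11.72, 11.53 and 11.19 in cKO and 13.35, 12.31, 12.80 and 12.97 in cCT brainstems (log2 fold change -1.41, SE 0.22, adjusted p = 0.0228). That call was lost without cKO replicate 1 or 3 or cCT replicate 3 or 4, with adjusted p-values up to 0.0854 when 1 array was left out. Its other 3 probes did not pass, and where each probe lies relative to the deleted exon is not given in the sources used here. Of 8 brainstem markers fixed for a check of the tissue, 7 were on the array, and all 7 were detected on at least 1 array. Markers of choroid plexus and cerebellum were highest on the cKO replicate 4 array, as given with Cxcl12 below.

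Across the members, no probe passed the adjusted test in either direction. Cxcl10 and Ccl21a were the members furthest above the controls, with no overlap between the genotypes, and the brightest Cxcl12 probe had the smallest p among member probes that were lower. Of the 15 probes, 9 were detected on all 8 arrays, 3 on none, and 10, of 7 genes, were tested. Among all tested probes, 102 (0.670%) passed as higher in cKO and 5 (0.0328%) as lower. At an unadjusted p under 0.05, 2 of the 7 tested genes were higher in cKO, where 6.86% of all tested probes were, and 1 was lower, where 3.02% were. Genotypes did not overlap for 2 of the 7 genes, both higher in cKO, against 4.01% of all tested probes, and for 0 of 7 lower in cKO, against 1.79%. The median log2 fold change of the 7 genes, each by its brightest tested probe, was 0.63, and that of all 10427 tested genes was 0.02. These shares rest on few genes that were chosen with earlier results known, so they describe the set and test nothing about it. Here and below, each gene is counted by its brightest tested probe, whereas the background shares cover all tested probes, so the units differ. In whole tissue, fewer cells of a type and less RNA per cell cannot be told apart. With array weights, and without cKO replicate 4, 2 member probes passed, those of Cxcl10 and Ccl21a.

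**Figure D1:**
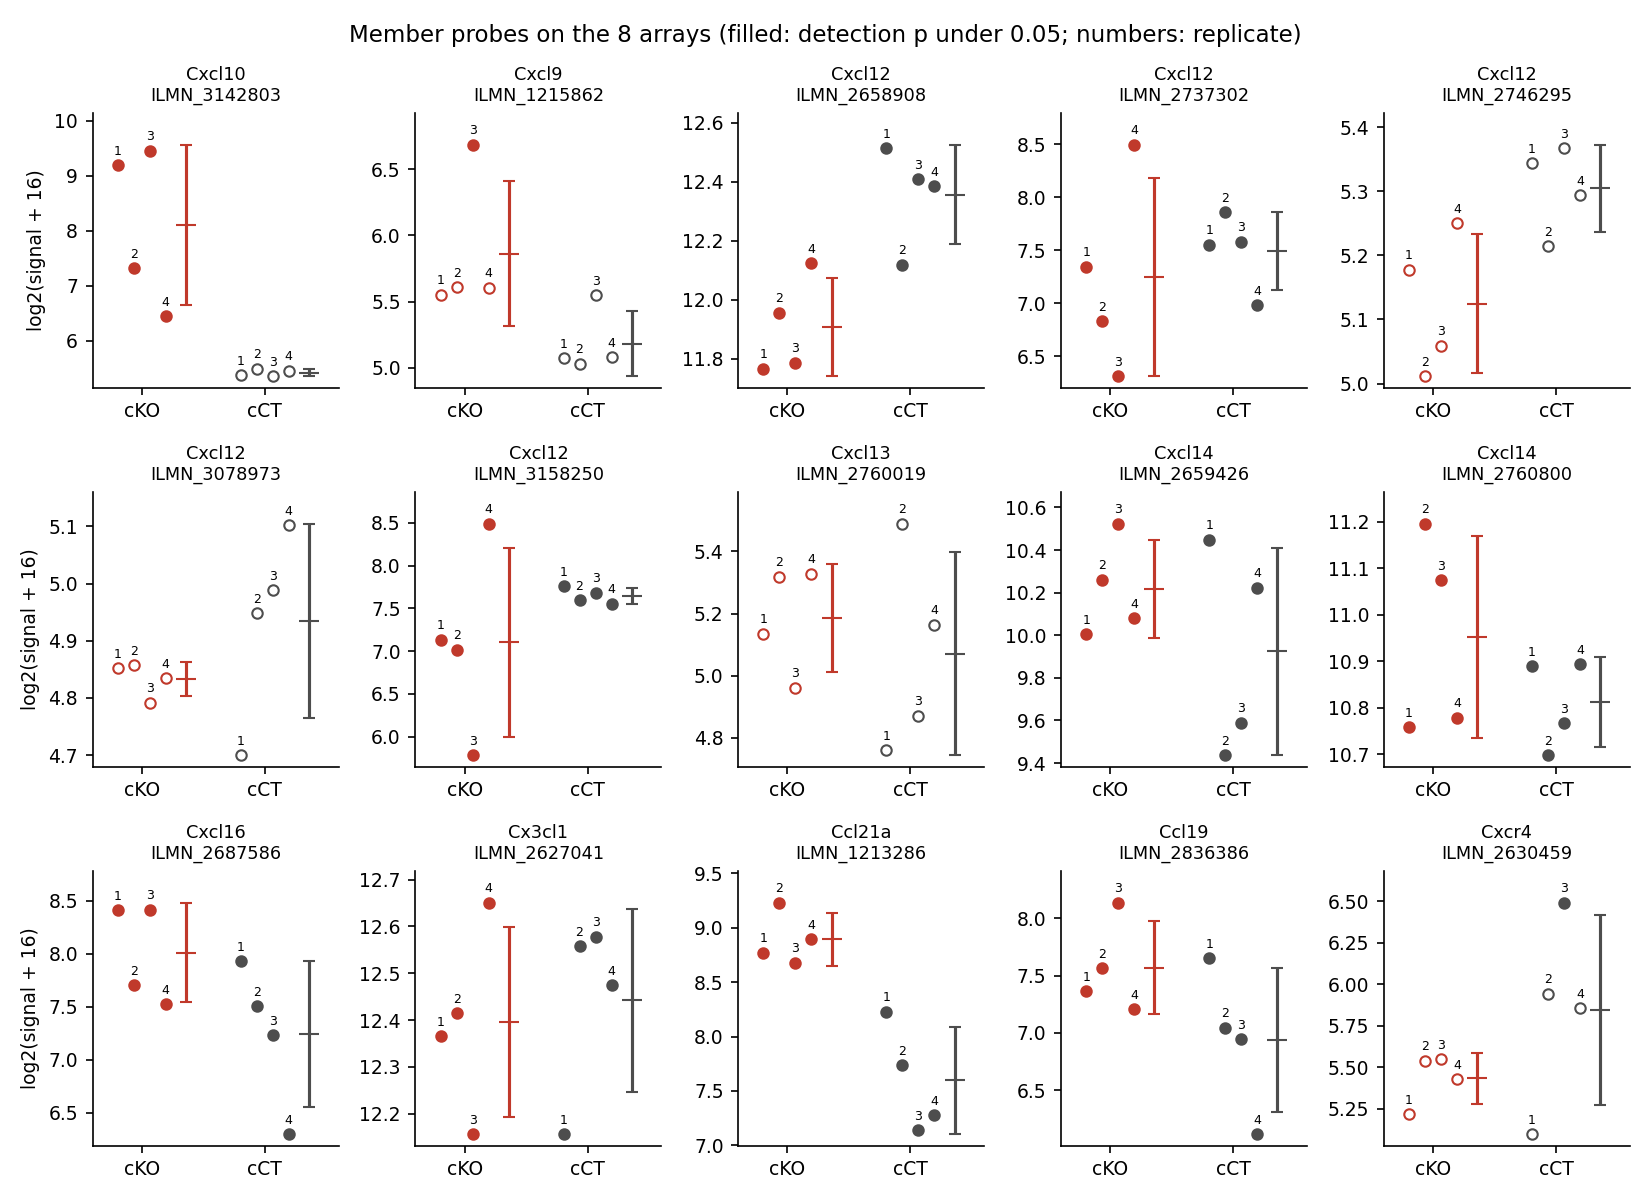
Log2 signal (vertical axes) of the member probes on each array, each panel on its own scale, with cKO left of cCT. Filled points were detected at a detection p under 0.05 and open points were not, and bars give the mean and SD of 4 arrays. Cxcl10 was detected on 4 of 4 cKO arrays and on 0 of 4 cCT arrays, and Ccl21a had no overlap between the genotypes.

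**Figure D2:**
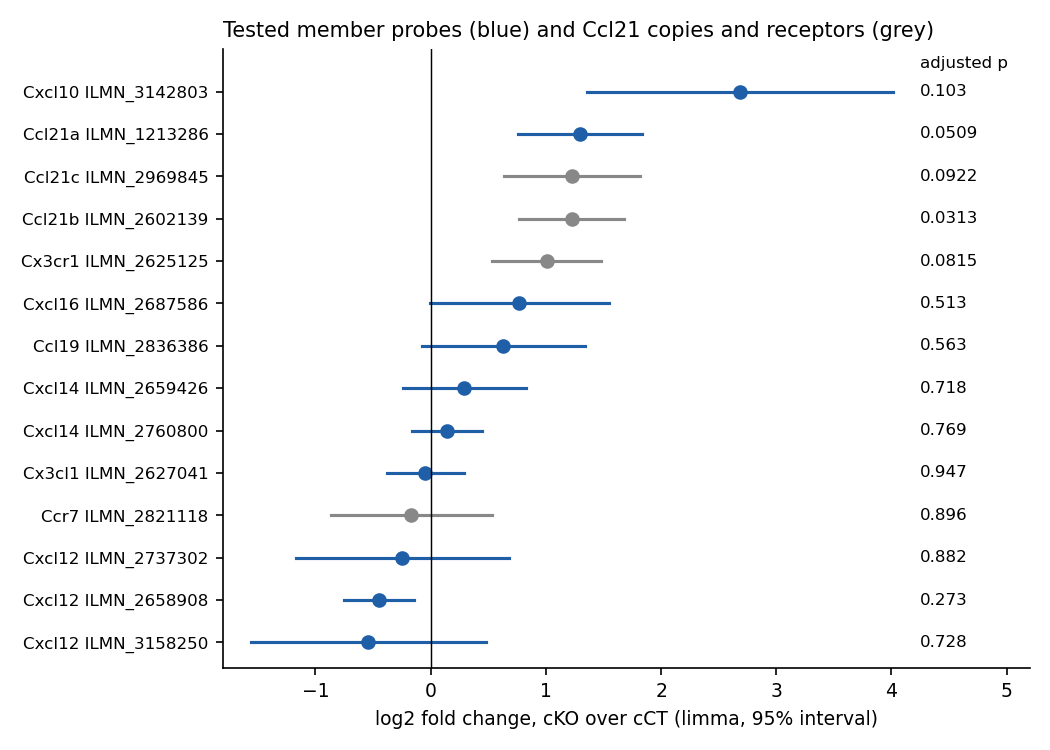
Log2 fold change of cKO over cCT (horizontal axis) for the 10 tested member probes (blue) and for Ccl21b, Ccl21c, Cx3cr1 and Ccr7 (grey), with the 95% confidence interval from limma as a bar and the adjusted p beside it. Among members the intervals of Cxcl10 and Ccl21a lie above 0 and that of the Cxcl12 probe ILMN_2658908 lies below 0, and of all probes shown Ccl21b alone has an adjusted p under 0.05 (0.0313).

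Cxcl10, the interferon-induced CXCR3 ligand, was detected in every cKO brainstem and in no cCT brainstem. Before background correction its probe, ILMN_3142803, read 773, 330, 890 and 253 in cKO replicates 1 to 4, against 229, 229, 210 and 209 in cCT replicates 1 to 4. The log2 signals were 9.20, 7.32, 9.45 and 6.45 in cKO and 5.38, 5.49, 5.36 and 5.46 in cCT brainstems. All 4 cKO arrays lay above all 4 cCT arrays, but the cKO animals were spread widely, with replicates 1 and 3 high and replicate 4 nearest to the controls. Means were 8.11 ± 1.46 in cKO and 5.42 ± 0.06 in cCT (SD, n = 4 each), and the log2 fold change of 2.68 (SE 0.59, 95% interval 1.36 to 4.01) had an unadjusted p of 0.00124 and missed the threshold after adjustment (adjusted p = 0.103). Because the cCT signal was not above background, a bound was also taken, with the cCT arrays set at the dimmest signal that counts as detected on each. Under this background correction and offset, the difference of means was then 4.34-fold higher in cKO. That bound leaves out sampling error, and the 95% interval reaches lower, to 1.36 on the log2 scale. Detection on all cKO and no cCT arrays was found for 49 of the 25697 probes (0.191%).

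The Cxcl10 value moved with the treatment of background and with the animals included. Without background correction the log2 fold change was 1.15 (adjusted p = 0.190). Without cKO replicate 4 it was 3.24 and passed (adjusted p = 0.0186). It was 2.23 without cKO replicate 3 and 2.32 without cKO replicate 1, and with any single array other than cKO replicate 4 left out it did not pass, with adjusted p-values up to 0.267. Beads for the members numbered 21 to 54 per probe and array, and the bead standard error was 2.18% to 8.03% of the signal.

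Cxcl9, the other interferon-induced CXCR3 ligand measured, was close to background throughout and its probe, ILMN_1215862, was not tested. The log2 signals were 5.55, 5.61, 6.69 and 5.60 in cKO and 5.07, 5.03, 5.55 and 5.08 in cCT brainstems. Only cKO replicate 3 was detected, with a detection p of 0.00376, and this animal also had the highest Cxcl10. The lowest cKO value and the highest cCT value both round to 5.55, and a bound on the fold is not given because it fell under 1. With the detection filter removed, the difference of 0.68 (SE 0.25) had an adjusted p of 0.514. The receptor of both ligands, Cxcr3, and the further CXCR3 ligand Cxcl11 were detected on none of the 8 arrays. The paper names Cxcr3 among its differentially expressed transcripts, whereas here its probe had mean log2 signals of 4.96 in cKO and 5.09 in cCT brainstems. The cause of that difference was not tested.

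The interferon genes beside these ligands were read from a list of 20 signalling components and targets, of which 19 were on the array and 15 were tested. Of the 15, 1 passed as higher in cKO, where 0.670% of all tested probes did, and 0 passed as lower. That gene was Irf8, a transcription factor of myeloid cells that interferon-gamma induces. Its log2 signals were 8.04, 7.75, 8.48 and 7.46 in cKO and 6.55, 6.39, 6.74 and 6.47 in cCT brainstems (log2 fold change 1.39, SE 0.21, adjusted p = 0.0195), with no overlap. The Irf8 call was lost without cKO replicate 1 or without any 1 of the 4 cCT replicates, with adjusted p-values up to 0.0769. The other 14 tested genes did not pass. At an unadjusted p under 0.05, 11 of the 15 were higher in cKO, where 6.86% of all tested probes were, and 0 were lower, where 3.02% were. The genotypes did not overlap for 6 of the 15, all higher in cKO, against 4.01% of all tested probes, and the median log2 fold change was 1.00. The transcripts of the interferons Ifng and Ifnb1 were detected on none of the 8 arrays, nor were Ifnar1, a type I interferon receptor chain, and Ifit1. Snap25 and Gad2, which mark neurons, were also detected on none of the 8 arrays. Lack of detection, here and for the other genes named, therefore does not show that a transcript was absent.

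The 2 cKO animals with the most Cxcl10 were also the highest for many of these genes. Cxcl10 was highest in cKO replicates 1 and 3, and the same pair was highest among the cKO arrays for 11 of the 15 tested interferon genes (73.3%), against 1770 of 10427 tested genes (17.0%). The order of Cxcl10 with replicate 3 highest and replicate 4 lowest was shared by 7 of the 15 (46.7%), against 1617 of the 10427 (15.5%). Outside the list, the brightest probes of Cx3cr1 and of the microglial marker Aif1 had that order too. Those of the microglial markers P2ry12, Tmem119, Sall1 and Siglech did not. The cKO replicate 4 array was also the highest on a choroid plexus transcript and on cerebellar markers, as given with Cxcl12 below. Usp18, which trims ISG15 from proteins and damps interferon signalling, had log2 signals of 10.70, 9.55, 11.27 and 8.83 in cKO and 7.79, 8.38, 8.48 and 8.60 in cCT brainstems on ILMN_3131679 (log2 fold change 1.78, SE 0.47, adjusted p = 0.182). Oasl2, an interferon-induced antiviral gene, had a log2 fold change of 1.32 (SE 0.27, adjusted p = 0.0753), and Gbp2, a guanylate-binding GTPase, one of 1.00 (SE 0.21, adjusted p = 0.0922). Ifit3, another interferon-induced gene, had 1.02 on its brightest probe, ILMN_2944666 (adjusted p = 0.408), and -0.09 and 0.02 on its other tested probes, where cKO replicates 1 and 4 were the highest. The cKO values did not overlap the cCT values on the brightest probe of Usp18, Oasl2 or Gbp2, and replicates 1 and 3 were the highest in each. Over the 8 arrays, the probes that followed Cxcl10 most closely were those of Nlrc5, Pdlim3 and Usp18 (Pearson r = 0.98 each), and after the group means were subtracted those of Sft2d2, Hey1 and Gbp3 (r = 0.98, 0.98 and 0.97). Cxcl10 was taken for this comparison after its values had been seen. The 8 points share the genotype difference or, once that is removed, the spread among 4 cKO animals. The named probes are the best of all tested probes that have a gene symbol outside the members.

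**Figure D3:**
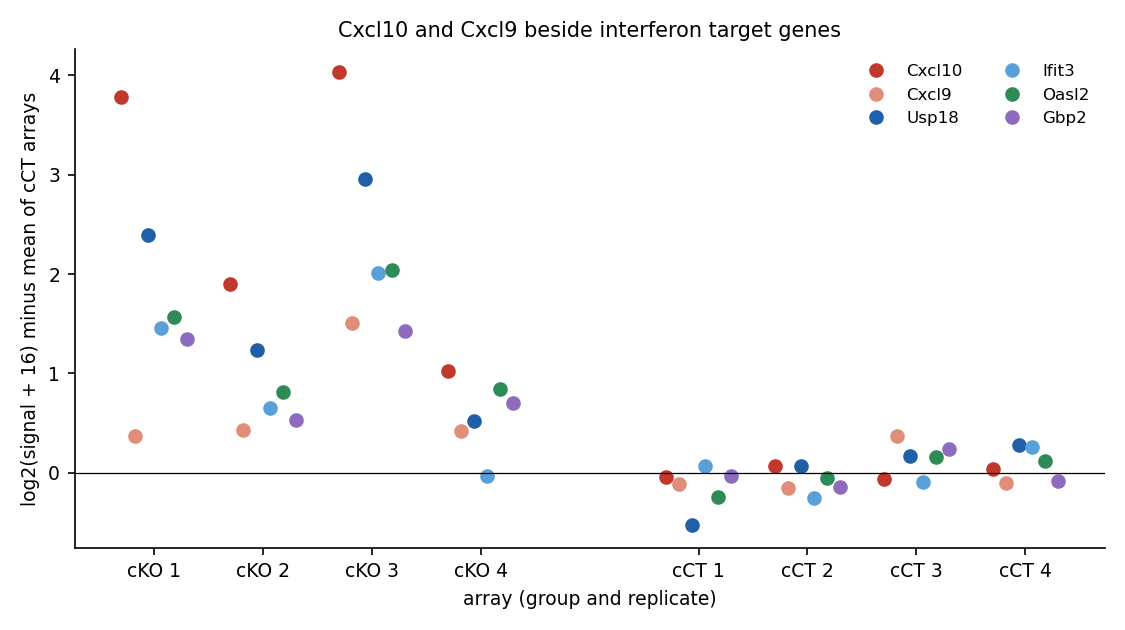
Log2 signal of Cxcl10, Cxcl9 and 4 interferon-induced genes on each array, minus the mean of the 4 cCT arrays for the same probe (vertical axis), with cKO left of cCT. The genes plotted were chosen after their values were seen, and cKO replicates 1 and 3 lie highest among the cKO arrays for Cxcl10, Usp18, Ifit3, Oasl2 and Gbp2 on the probes shown.

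Among markers of myeloid cells, 1 of 5 tested macrophage markers passed as higher in cKO, where 0.670% of all tested probes did. It was Lyz2, the lysozyme of macrophages and other myeloid cells. At an unadjusted p under 0.05, 2 of the 5 were higher, where 6.86% of all tested probes were. The summed signal of the 5 was 3156 to 4312 in cKO and 987 to 1898 in cCT brainstems, and most of it came from Lyz2. Without Lyz2, the sum of Mrc1, Cd163, Ms4a7 and F13a1 was 832 to 1185 in cKO and 554 to 941 in cCT, which overlap. Ccr2, which defines infiltrating monocytes, was detected on none of the arrays. Of 5 tested microglial markers 0 passed, 2 were higher in cKO at an unadjusted p under 0.05, where 6.86% of all tested probes were, and the sum of the 5 was 2367 to 3647 in cKO and 2013 to 2566 in cCT. Among T cell markers, Cd3g, Cd4, Cd8a and Cd2 were not detected on any array, and the 1 tested, Cd3e, had a log2 fold change of -0.10 (adjusted p = 0.907). The part of these cells in the Cxcl10 difference was not tested.

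Ccl21a, a CCR7 ligand of lymphoid stroma and lymphatic vessels, was higher in all 4 cKO brainstems than in any cCT brainstem and lay just outside the threshold. Its probe, ILMN_1213286, had log2 signals of 8.77, 9.23, 8.68 and 8.89 in cKO and 8.23, 7.74, 7.14 and 7.28 in cCT brainstems. The cKO animals lay close together and the cCT animals were more spread, with cCT replicate 1 nearest to the cKO range. Means were 8.89 ± 0.24 in cKO and 7.60 ± 0.49 in cCT (SD, n = 4 each). The log2 fold change was 1.30 (SE 0.24, 95% interval 0.76 to 1.84, unadjusted p = 0.000368, adjusted p = 0.0509). Without cKO replicate 4 Ccl21a passed (adjusted p = 0.0492), although its log2 fold change stayed at 1.30 and its unadjusted p rose to 0.00117. In that fit 234 probes passed as higher and 123 as lower, which made the adjustment milder. Ccl21a also passed without cCT replicate 1 (log2 fold change 1.51, adjusted p = 0.0248). Of 10 other settings it passed in 5, and adjusted p-values over the 10 ran between 0.0149 and 0.132. It also passed when each gene was taken as the mean of its tested probes (adjusted p = 0.0342), a fit with fewer rows to adjust over. Without background correction the log2 fold change was 0.75 (adjusted p = 0.0316).

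The mouse genome carries near-identical copies of Ccl21, and the probes of Ccl21b and Ccl21c followed that of Ccl21a. Ccl21b passed, with log2 signals of 8.14, 8.74, 8.42 and 8.41 in cKO and 7.63, 7.26, 6.74 and 7.20 in cCT brainstems (log2 fold change 1.22, SE 0.20, adjusted p = 0.0313). Ccl21c had 8.02, 8.43, 7.30 and 7.95 in cKO and 7.14, 6.30, 6.43 and 6.90 in cCT brainstems (log2 fold change 1.23, SE 0.26, adjusted p = 0.0922). For each copy all 4 cKO arrays lay above all 4 cCT arrays. Over the 8 arrays Pearson's r was 0.97 between Ccl21a and Ccl21b, 0.90 between Ccl21a and Ccl21c and 0.89 between Ccl21b and Ccl21c, and after the group means were subtracted it was 0.87, 0.57 and 0.53. Because the copies are so alike, a probe may bind transcripts of more than 1 of them, so the 3 values cannot be taken as separate genes or as independent support for each other. The Ccl21b call was lost with 6 of the 8 arrays left out in turn, the exceptions being cKO replicate 4 and cCT replicate 1 (adjusted p up to 0.109), and with quantile normalization (adjusted p = 0.0740).

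**Figure D4:**
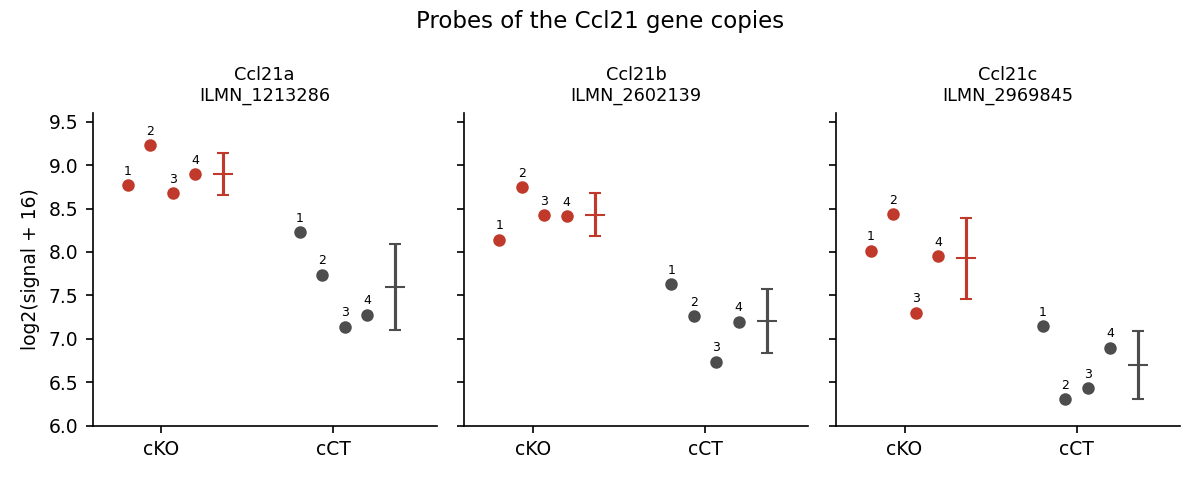
Log2 signal (vertical axis) of the probes annotated to Ccl21a, Ccl21b and Ccl21c on each array, cKO left of cCT, with bars for the mean and SD of 4 arrays. In all 3 the cKO arrays lie above the cCT arrays.

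Ccl19, the other CCR7 ligand, did not pass the test. Its probe, ILMN_2836386, had log2 signals of 7.37, 7.56, 8.14 and 7.21 in cKO and 7.65, 7.04, 6.94 and 6.12 in cCT brainstems. The genotypes overlapped, with cCT replicate 1 above 3 of the cKO animals, and the log2 fold change was 0.63 (95% interval -0.08 to 1.34, adjusted p = 0.563), with a range of 0.36 to 0.86 when 1 array was left out. The interval holds the Ccl21a value of 1.30, and the difference between Ccl19 and Ccl21a was not tested. Ccr7 itself was detected on 2 cKO and 1 cCT arrays and had a log2 fold change of -0.17 (SE 0.31, adjusted p = 0.896). Of the 3 tested markers of lymphatic endothelium, Prox1, Lyve1 and Pdpn, 0 passed, and their summed signal was 3281 to 4734 in cKO and 2887 to 3703 in cCT brainstems. Most of that sum came from Pdpn, with mean log2 signals of 11.68 in cKO and 11.40 in cCT brainstems. Prox1 had 8.75 and 8.98 and Lyve1 6.57 and 6.20, so the sum mostly follows 1 gene and does not measure the cell type. Flt4, also on that list, was not tested. Of 6 meningeal fibroblast markers 0 passed, and their sum was 16997 to 22132 in cKO and 12783 to 27436 in cCT. The part of either cell type in the Ccl21a difference was not tested. By the measure of likeness, the probes closest to Ccl21a over the 8 arrays were those of Eva1c (r = 0.98), Ccl21b (0.97) and Hjurp (0.95), and after group means were subtracted those of Ergic1 (0.97), Olfml2b (0.90) and Bloc1s5 (0.90).

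Cxcl12, the constitutive ligand of CXCR4, was measured by 5 probes that did not agree in level or spread. The brightest, ILMN_2658908 (annotated to NM_013655), had log2 signals of 11.77, 11.96, 11.79 and 12.12 in cKO and 12.51, 12.12, 12.41 and 12.38 in cCT brainstems. All but 1 cKO value lay below the cCT values, the overlap being at 12.12, where cKO replicate 4 met cCT replicate 2. The log2 fold change was -0.45 (SE 0.14, 95% interval -0.75 to -0.14, unadjusted p = 0.00878), and it did not pass after adjustment (adjusted p = 0.273). Taken as the mean of its 3 tested probes, Cxcl12 had a log2 fold change of -0.41 and an unadjusted p of 0.203, so by that measure no member was lower at an unadjusted p under 0.05. ILMN_2737302 (NM_021704) had 7.35, 6.83, 6.31 and 8.49 in cKO and 7.55, 7.86, 7.58 and 6.98 in cCT brainstems. On this probe cKO replicate 4 was the highest of the 8 arrays and cKO replicate 3 the lowest, and the log2 fold change was -0.25 (adjusted p = 0.882). ILMN_3158250 (NM_001012477) had 7.13, 7.02, 5.78 and 8.49 in cKO and 7.76, 7.59, 7.68 and 7.55 in cCT brainstems, with a log2 fold change of -0.54 (adjusted p = 0.728) that was -0.10 without cKO replicate 3 and -1.005 without cKO replicate 4. Both dimmer probes thus put the cKO animals in the order 3, 2, 1, 4 from low to high, and their deviations from the group means correlated with r = 0.91 over the 8 arrays. The cKO replicate 4 array also had the highest signal of Ttr, a choroid plexus transcript, with log2 signals of 11.29, 11.59, 12.12 and 15.27 in cKO and 13.02, 13.21, 10.86 and 12.44 in cCT brainstems. It was also the highest on the cerebellar markers Pcp2 (10.17, against 6.63 to 7.55 in the other cKO and 5.94 to 8.70 in the cCT arrays), Neurod1 (8.18, against 5.34 to 5.98 and 5.75 to 6.63) and Gabra6 (8.09, against 4.94 to 5.16 and 4.91 to 5.65), and Gabra6 was detected on this array alone. Cxcl10, Ccl21a and Cx3cr1 passed without this array, although the log2 fold change of Ccl21a stayed at 1.30. The part of adjoining tissue in these readings was not tested. The remaining 2 Cxcl12 probes, ILMN_2746295 and ILMN_3078973, were detected on no array.

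The receptor Cxcr4 was at the edge of detection. Its probe, ILMN_2630459, had log2 signals of 5.22, 5.54, 5.55 and 5.43 in cKO and 5.10, 5.94, 6.49 and 5.85 in cCT brainstems and was detected only in cCT replicate 3. The genotypes overlapped, the probe was not tested, and no bound on the fold is given because it fell under 1. Ackr3, the scavenger that clears CXCL12, was not detected on any array. Cxcl13, the ligand that brings B cells to follicles, was likewise not detected on any array, with log2 signals of 4.96 to 5.33 in cKO and 4.76 to 5.49 in cCT brainstems. Its receptor Cxcr5 was detected by 1 probe on 1 cKO array, and none of the B cell markers was bright enough to be tested. These dim readings say only that a level was not detectable on these arrays.

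Cx3cl1, the neuronal ligand also called fractalkine, was bright on every array and differed little. Log2 signals were 12.37, 12.41, 12.16 and 12.65 in cKO and 12.16, 12.56, 12.58 and 12.47 in cCT brainstems (ILMN_2627041). The groups overlapped throughout, and the log2 fold change of -0.05 had a 95% interval of -0.38 to 0.29 (adjusted p = 0.947), so changes larger than these limits lie outside the interval. Its receptor Cx3cr1, a defining gene of microglia, stood further apart, with 11.62, 11.82, 12.10 and 11.13 in cKO and 10.37, 10.74, 10.90 and 10.63 in cCT brainstems. Every cKO array lay above every cCT array, and the log2 fold change of 1.01 (SE 0.21) had an adjusted p of 0.0815. It passed only without cKO replicate 4 among the single arrays left out (adjusted p = 0.0200), and in 3 of 10 other settings. The difference between the ligand's and the receptor's fold change was not tested.

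Cxcl16, a transmembrane ligand of CXCR6, had log2 signals of 8.41, 7.70, 8.41 and 7.52 in cKO and 7.93, 7.51, 7.23 and 6.30 in cCT brainstems (ILMN_2687586). The highest readings, 8.41 each, came from cKO replicates 1 and 3 and the lowest from cCT replicate 4, with overlap between the genotypes in the middle of the range. The log2 fold change of 0.77 (SE 0.35) had a 95% interval of -0.01 to 1.55 (adjusted p = 0.513) and ran between 0.46 and 1.00 when 1 array was left out. Its receptor Cxcr6 was not detected on any array. Cxcl14, a chemokine made constitutively in epithelia and in some neurons, was read by 2 bright probes. ILMN_2659426 had 10.004, 10.26, 10.52 and 10.08 in cKO and 10.45, 9.44, 9.59 and 10.22 in cCT brainstems (log2 fold change 0.29, adjusted p = 0.718). ILMN_2760800 had 10.76, 11.19, 11.07 and 10.78 in cKO and 10.89, 10.70, 10.77 and 10.89 in cCT brainstems (log2 fold change 0.14, adjusted p = 0.769). Both probes overlapped between the genotypes, with cKO replicates 2 and 3 highest among the cKO arrays on each.

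The rest of the ligand and receptor system was mostly dim. Of 9 receptors and scavengers for these ligands, 4 were tested and 0 passed, with a median log2 fold change of 0.25. Apart from Cx3cr1 and Ccr7, the tested ones were Ackr1, a scavenger on venules and red cells (log2 fold change 0.13, adjusted p = 0.818), and the atypical receptor Ccrl2 (0.37, adjusted p = 0.534). Of 16 other CXC, XC and homeostatic CC ligands, 9 were detected on no array, Cxcl2, Cxcl3, Cxcl5, Cxcl11, Cxcl15, Cxcl17, Xcl1, Ccl20 and Ccl28. Another 6 were tested, of which 1 passed as higher (Ccl21b), where 0.670% of all tested probes did, and 0 as lower. The platelet chemokine Ppbp had the smallest p among those lower in cKO. On ILMN_2908435 it had log2 signals of 4.99, 5.13, 5.29 and 5.44 in cKO and 5.95, 6.43, 7.16 and 5.57 in cCT brainstems, detected on 0 cKO and 3 cCT arrays (adjusted p = 0.230). The bound on this probe, which leaves out sampling error, was 1.32-fold lower in cKO, a difference that did not pass. The other Ppbp probe, ILMN_1228102, was detected on 0 cKO and 2 cCT arrays, overlapped between the genotypes and was not tested. Among genes that process these ligands, 3 of the 4 on the array were tested and 0 passed. Adam17, a protease that sheds membrane-bound CX3CL1 and CXCL16, had a log2 fold change of -0.32 (SE 0.14, adjusted p = 0.491), and the median of the 3 was -0.31.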

How the data were processed

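Total RNA from whole brainstem was labelled and hybridised to 8 Illumina arrays on 1 beadchip, 1 array per mouse. The deposited table before normalization gives a signal intensity, a detection p-value, a bead count and a bead standard error for each probe. The authors also deposited intensities that GenomeStudio (version not given in the sources used here) had background-subtracted and scaled by its average method, and these served as an alternative. Samples were grouped by the genotype in the labels, and replicates are separate mice.

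Calculations used R 4.3.3 and limma 3.58.1. Background was removed from the intensities with normexp, its mean and SD inferred from detection p-values. Arrays were scaled to equal mean signal, 16 was added and log2 taken. A linear model with moderated statistics compared cKO with cCT over 15225 probes detected on at least 3 arrays, with Benjamini-Hochberg adjustment over all of them and a threshold of 0.05. The custom error model named in the study's methods was not at hand. Array measures were compared with exact permutation tests over the 70 arrangements. The bound for an undetected group uses, per array, the higher of the probe's own value and the lowest detected signal. It is a difference of means and leaves out sampling error. List sums add the scaled signals of each tested gene's brightest probe.

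The named genes were all 10 members, then from each list the gene with the smallest p in each direction, receptors of the members, and the 3 probes most like the member with the smallest p. Usp18, Oasl2, Gbp2 and Ifit3, the genes most like Cxcl10, and the order of the cKO animals were singled out after the values were seen. The members and lists were chosen with earlier results of these data known. Of these steps, only the linear model was tested on simulated data with known changes. The alternatives were other background corrections, offsets, normalizations, filters, moderation, array weights, a replicate block and each array left out. Promoters came from RefSeq, GRCm38.p6.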

Additional observations from a re-analysis of the deposited data

Results flagged for a closer look

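Among 30 groups of 4 arrays checked over the member probes, 2 held an array far from the other three, where chance alone marks about 1 group in 20. Both concern Cxcl9. The log2 signal of cKO replicate 3 was 6.69 and the nearest cKO value was 5.61, a gap of 0.949 of the group's range. The log2 signal of cCT replicate 3 was 5.55 and the nearest cCT value was 5.08, a gap of 0.903 of the range, although that array did not reach detection.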

How the results depend on the processing

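No member probe passed as lower in any setting. Member probes passing as higher, 0 as reported, were 1 (Ccl21a) without background correction, with an offset of 50, with a strict filter on detection and with trend and robust moderation, and 2 with array weights. Leaving out 1 array gave 0 to 2. Among all tested probes, array weights gave 213 higher and 27 lower, an offset of 50 gave 3 lower, and leaving out 1 array gave 30 to 234 higher and 0 to 123 lower, both highest without cKO replicate 4. Of the calls, 65.5% were higher without cKO replicate 4 and 88.8% with array weights, and at least 95% in the other settings. With the replicate number as a block, 11 probes were higher and 0 lower, and the calls of Ccl21b, Irf8 and Ndufs4 were lost (adjusted p = 0.147, 0.0615 and 0.144). Same-numbered arrays deviated from their group means with r between -0.26 and -0.19. The labels do not say whether the numbers pair the mice, and correlations of expression cannot decide it. The log2 fold change of the Cxcl12 probe ILMN_2737302 ran between -0.663 and 0.0645 with 1 array left out and turned positive without cKO replicate 3. That of Cx3cl1 ran between -0.140 and 0.0350 and turned positive without cKO replicate 3 and without cCT replicate 3 (0.000271). Cxcl10 also passed with array weights (2.90, adjusted p = 0.0247) and could not be tested under the strict filter. The cause of these changes was not tested. The settings for Ccl21b, Ccl21c, Cx3cr1, Irf8 and Ndufs4 were added after seeing the data. The number of arrays, 4 per genotype, limits the precision, and levels near background cannot be ranked.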
